A study of Chlamydomonas reinhardtii with 18 samples.

Results

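The nuclear-encoded part of the mitochondrial respiratory chain and ATP synthase was followed as 95 genes of the green alga Chlamydomonas reinhardtii, out of 17693 in the expression table. They were chosen by symbol: NUO (complex I), SDH (complex II), QCR (complex III), COX (complex IV), ASA or ATP with a number (ATP synthase, also called complex V), and CYC1, leaving out genes of the plastid and mitochondrial genomes. By symbol, 77 genes name a subunit or cytochrome c and 18 an assembly factor. The subunits are 37 of complex I, 4 of complex II, 7 of complex III, 8 of complex IV and 20 of the ATP synthase, and CYC1 stands alone. All 95 passed the filter on low values, which kept 14731 genes.

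Both genotypes were sampled at 3 times, so the samples form 6 groups of 3 libraries. The mutant tpt10b is a knockout of CreTPT10, set against the wild type (WT), and both are labelled CC-4532. Both grew in acetate-containing TAP medium in low light (about 30 μmol photons m-2 s-1) until mid-log growth, and the 0 h samples were taken just before the cultures were darkened. The dark samples were taken after 24 h and 48 h without light. The labels do not say whether tpt10b is a single clone. They call the replicates biological without saying whether they were grown as separate cultures, so p-values measure the spread between these samples.

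As background, complex I and complex II pass electrons from NADH and succinate to ubiquinone, complex III hands them to cytochrome c, and complex IV passes them to oxygen. Complexes I, III and IV pump protons, and the ATP synthase uses the proton gradient to make ATP. In Chlamydomonas the mitochondrial genome is very small. Several subunits that other organisms encode there, among them COX2, COX3, ATP6, ATP9 and the complex I subunits NUO3 and NUO11, are therefore nuclear genes, and the ATP synthase carries algal ASA proteins in its peripheral stalk. In darkness on acetate, respiration is the cell's main source of ATP.

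Levels are TPM, transcript counts per gene length set to a fixed library total and computed by the authors. A gene's TPM therefore also moves with the rest of the transcriptome, and fewer transcripts per cell cannot be told apart from more of other transcripts. Libraries held 59603478 to 87965038 reads, and the member with the fewest reads in any library, COX16, had 66. The locus taken from background knowledge as CreTPT10 had 1.28 to 8.28 TPM in the tpt10b libraries and 32.8 to 85.4 TPM in the WT libraries. A rescaling that sets the median gene of each library equal (median-of-ratios) was run beside the TPM values, because the median log2 difference between tpt10b and WT over the 14731 genes was 0.41 at 0 h, -0.23 at 24 h and 0.12 at 48 h. Cytosolic ribosomal protein genes made up 25.8, 26.1 and 27.9% of TPM in tpt10b at 0 h, 37.1, 38.7 and 42.4% at 24 h, then 32.9, 33.6 and 31.9% at 48 h. In WT they made up 30.9, 33.2 and 31.1% at 0 h, 37.2, 36.7 and 33.0% at 24 h, then 34.5, 41.6 and 36.4% at 48 h. The part of this in the results was not tested.

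A single WT library stood apart. WT replicate 2 at 48 h correlated less with the others of its group (lowest Pearson r of log2 values 0.963, against at least 0.975 within every other group). Its locus for CreTPT10 was at 85.4 TPM, the highest of all libraries. The total counts of members for each comparison with the WT 48 h group are therefore also given without it, with counts by complex or list where they moved by at least 1.5 times, and NUOB8 was the only named WT difference of 48 h against 0 h to lose its call without it. For tpt10b at 48 h the sample titles give replicates 1 to 3 but the descriptions give 4 to 6, so a batch, if these numbers mark one, cannot be told apart from that group. The tpt10b libraries at 24 h also agreed less, with r of 0.975 to 0.981. Apart from them and WT at 48 h, the lowest r of a group was 0.990 to 0.995. Replicates 1 and 3 of tpt10b at 24 h had reads in 15490 and 15572 genes, and every other library in at least 16231. The part of this in the results at 24 h was not tested.

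The share of all TPM held by the 95 genes was smaller in darkness in both strains. In tpt10b it was 3.15 ± 0.0379% at 0 h, 2.60 ± 0.0663% at 24 h, then 1.65 ± 0.0387% at 48 h (mean ± SD, n = 3). In WT it was 2.62 ± 0.113%, 2.40 ± 0.111% and 1.59 ± 0.0897% at the same times. No library at 48 h overlapped with one at 0 h of its strain.

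The complexes followed different courses. The mean level of a complex I subunit gene was 171 ± 1.46, 112 ± 4.42 and 79.2 ± 1.74 TPM in tpt10b at 0, 24 and 48 h, and 149 ± 8.30, 111 ± 4.69 and 79.5 ± 2.89 TPM in WT. That of an ATP synthase subunit gene was 663 ± 12.4, 682 ± 19.7 and 398 ± 10.1 TPM in tpt10b, and 531 ± 19.4, 589 ± 41.4 and 393 ± 46.3 TPM in WT. On the TPM scale the complex I mean was thus lower by 24 h, while that of the ATP synthase was still at or above its 0 h level and dropped by 48 h. Rescaling divides the tpt10b libraries by 1.31, 1.29 and 1.24 at 0 h and by 0.849, 0.839 and 0.791 at 24 h. The first-day fall of the complex I mean in tpt10b therefore depends on the scale. The ATP synthase mean leans on its most abundant genes, ATP9A and ATP2 (2099 and 1080 TPM over all libraries). Both were higher at 24 h than at 0 h in each strain. By the counts given below, more of its subunits fell than rose by 24 h in tpt10b, and more rose than fell in WT. The same held over all genes, with 57.1% lower and 18.1% higher in tpt10b and 25.8% and 40.6% in WT. The ratio of the ATP synthase mean to the complex I mean does not depend on how a library is scaled. In tpt10b this ratio was 3.91, 3.88 and 3.83 at 0 h, 5.75, 6.25 and 6.29 at 24 h, then 4.99, 5.05 and 5.03 at 48 h. In WT it was 3.51, 3.70 and 3.45 at 0 h, 5.61, 4.95 and 5.37 at 24 h, then 4.42, 5.65 and 4.76 at 48 h. Every 24 h library lay above every 0 h library of its strain. The ratio of the complex II mean to the complex I mean was 2.93 ± 0.0495, 3.42 ± 0.277 and 2.14 ± 0.0343 in tpt10b and 2.77 ± 0.0972, 3.33 ± 0.0168 and 1.86 ± 0.0458 in WT at 0, 24 and 48 h. In both strains every 48 h library had a lower complex II ratio than every 0 h library. The mean level of a complex IV subunit gene was 765 ± 9.81, 444 ± 15.2 and 305 ± 9.36 TPM in tpt10b and 615 ± 27.7, 434 ± 13.1 and 270.0 ± 8.59 TPM in WT.

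**Figure D1:**
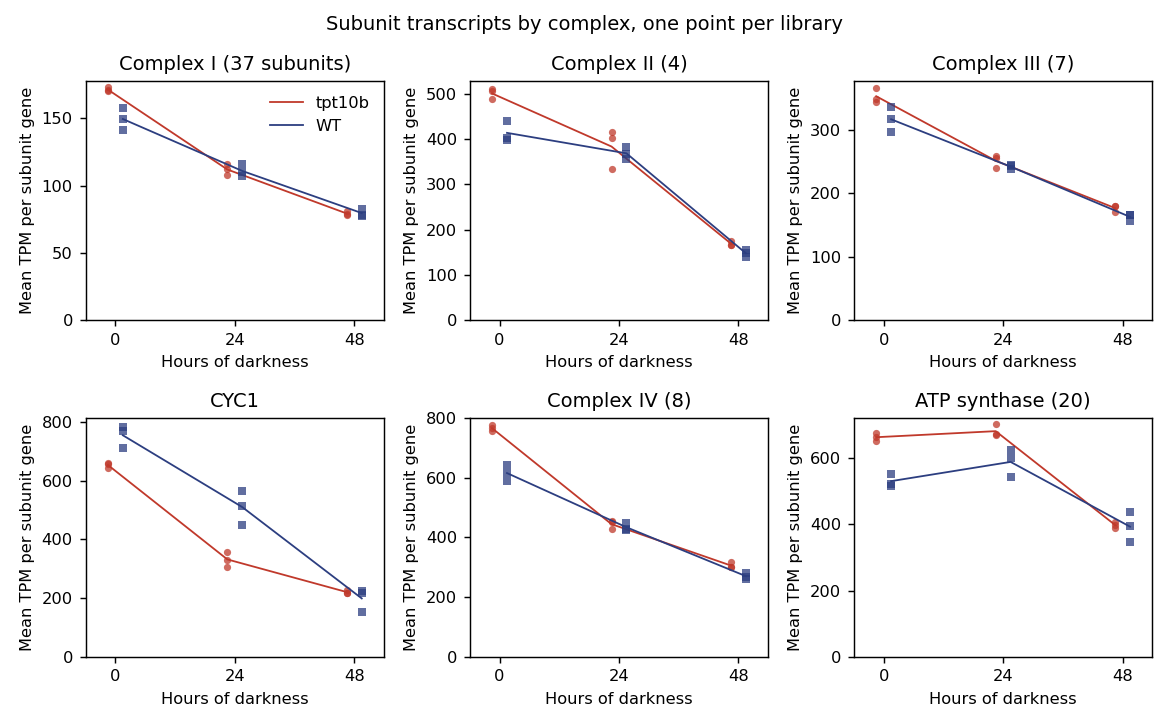
Mean TPM per subunit gene (vertical axes, from 0) of each complex and of CYC1 at 0, 24 and 48 h of darkness (horizontal axes). Each point is a library, tpt10b (red circles) left of WT (blue squares), and lines join the means of 3 libraries. On the TPM scale, complexes I to IV and CYC1 were lower at each later time. The ATP synthase means were 682 ± 19.7 TPM in tpt10b and 589 ± 41.4 TPM in WT at 24 h and dropped at 48 h.

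After 48 h of darkness most of the machinery was lower in both strains, while assembly factors went both ways, in shares near those over all genes. In tpt10b at 48 h against 0 h, 76 members fell and 9 rose (limma on log2(TPM + 1), Benjamini-Hochberg adjusted over all genes, adjusted p under 0.05, with ± giving the SE of a log2 difference from here on), beside 44.1% of all genes lower and 30.1% higher. In WT 71 fell and 13 rose, beside 32.4% of all genes lower and 37.7% higher. The median member differed by -1.04 on the log2 scale in tpt10b and -0.91 in WT, where the medians over all genes were -0.20 and 0.09. Rescaling left 69 lower and 10 higher in tpt10b, beside 36.9% and 37.0% of all genes, and 72 lower and 11 higher in WT, beside 37.2% and 35.0%. Without WT 48 h replicate 2 the WT counts were 70 and 13. The fall was shared: 69 members fell in both strains (70 without WT 48 h replicate 2), 9 rose in both, and COX11, a factor known from yeast for the copper centre of complex IV, was lower in tpt10b and higher in WT. The dark change of COX11 differed between the strains by -0.70 on the log2 scale (limma, adjusted p = 0.0019). After rescaling this difference was -0.32 and not called (adjusted p = 0.099). COX11 had 26.2, 23.8 and 25.7 TPM in tpt10b at 0 h, and 19.9, 19.0 and 21.7 TPM at 48 h. Rescaling divides these values by 1.31, 1.29 and 1.24 at 0 h and by 1.05, 1.05 and 1.10 at 48 h. The size of the COX11 fall in tpt10b therefore depends on the scale.

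**Figure D2:**
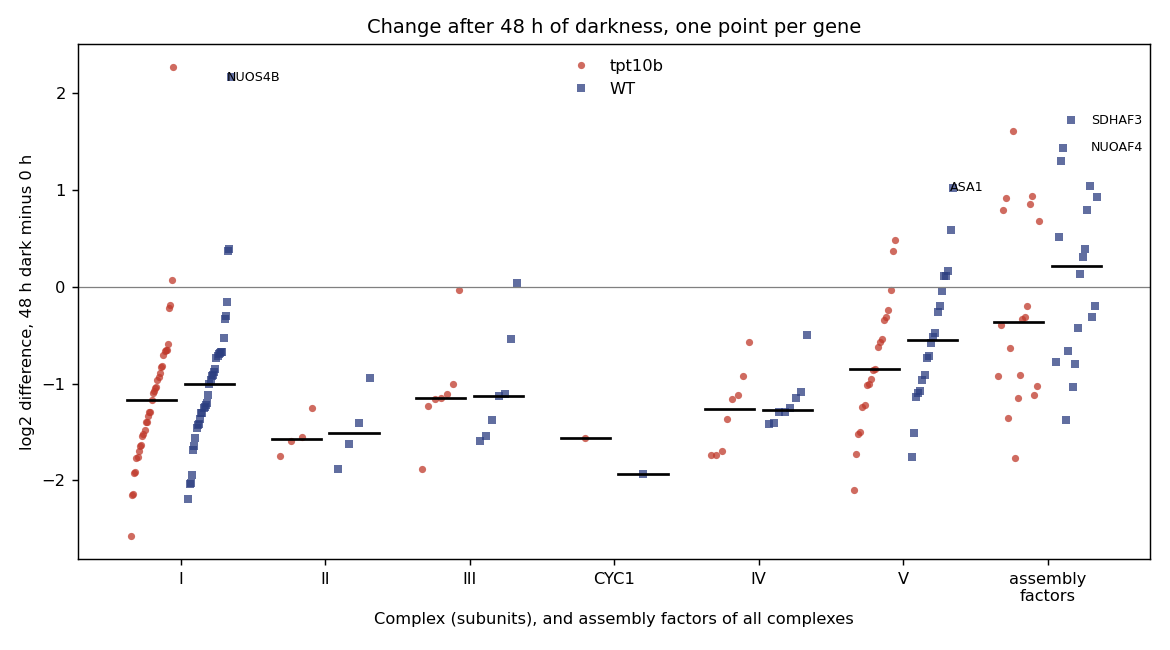
Log2 difference of 48 h of darkness minus 0 h (vertical axis) for each gene, in tpt10b (red circles) and in WT (blue squares), by complex. Black bars are medians of the subunits of each complex or of the 18 assembly factors, and subunits sit mostly below 0 while assembly factors spread to both sides.

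Most complex I subunits were lower after 48 h. In tpt10b 32 of its 37 subunits fell at 48 h against 0 h and 1 rose, with a median log2 difference of -1.16. In WT 33 fell and 3 rose, with a median of -1.0, and 32 fell and 2 rose without WT 48 h replicate 2. The largest fall in tpt10b was that of NUO18, with 58.5, 66.5 and 66.4 TPM at 48 h, against 393, 377 and 381 TPM at 0 h. WT had 66.2, 103 and 79.7 TPM of NUO18 at 48 h, against 339, 340.4 and 338 TPM at 0 h. The times did not overlap in either strain, and the tpt10b difference was -2.57 ± 0.18 on the log2 scale (adjusted p = 7.3e-10). NUOA3 fell most in WT, with 47.5, 37.9 and 45.1 TPM at 48 h, against 208, 199 and 197 TPM at 0 h, a difference of -2.19 ± 0.11 on the log2 scale (adjusted p = 2.2e-11). In tpt10b NUOA3 had 41.0, 39.5 and 46.2 TPM at 48 h, against 186, 181 and 206 TPM at 0 h. NUOB8, the complex I gene with the highest mean level, had 270.3, 286 and 275 TPM in tpt10b at 48 h, against 322, 305 and 340.5 TPM at 0 h. Its difference was -0.22 ± 0.10 on the log2 scale (adjusted p = 0.059) in tpt10b and 0.05 after rescaling, and it was -0.30 ± 0.10 on the log2 scale (adjusted p = 0.012) in WT, where the call is lost without replicate 2 at 48 h (-0.21, adjusted p = 0.056). NUOP5, next in level, fell by more, with -0.96 ± 0.10 on the log2 scale (adjusted p = 1.3e-07) in tpt10b and -0.73 ± 0.10 on the log2 scale (adjusted p = 3.7e-06) in WT.

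NUOS4B was the single complex I subunit that rose in both strains. It had 49.3, 29.3 and 44.6 TPM in tpt10b at 48 h, against 7.49, 7.19 and 7.96 TPM at 0 h, a difference of 2.27 ± 0.37 on the log2 scale (adjusted p = 2.9e-05). In WT it had 46.4, 16.3 and 43.7 TPM at 48 h, against 6.85, 4.57 and 8.23 TPM at 0 h, a difference of 2.17 ± 0.37 on the log2 scale (adjusted p = 5.1e-05). The times did not overlap in either strain, and WT replicate 2 was the lowest of its 48 h group.

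All 4 complex II subunits fell in both strains at 48 h. SDH4, a membrane anchor subunit, had 221, 207 and 228 TPM in tpt10b at 48 h, against 722, 736 and 756 TPM at 0 h, a difference of -1.75 ± 0.11 on the log2 scale (adjusted p = 1.7e-10). In WT it had 194, 146 and 196 TPM at 48 h, against 685, 629 and 645 TPM at 0 h, a difference of -1.88 ± 0.11 on the log2 scale (adjusted p = 8.3e-11). No library of the 2 times overlapped. SDH3, the other anchor subunit and, in the RefSeq annotation of assembly Chlamydomonas_reinhardtii_v5.5, the direct neighbour of SDH4, went its own way on the first day: it had 641, 439.5 and 535 TPM in tpt10b at 24 h, against 413, 398 and 390.2 TPM at 0 h. On the TPM scale all libraries of tpt10b at 24 h were thus above those at 0 h for SDH3, while for SDH4 they were below, with 461, 391 and 438 TPM at 24 h. WT libraries showed the same split. There SDH3 had 394, 356 and 446 TPM at 24 h, against 350, 325 and 312 TPM at 0 h, and SDH4 had 454, 499 and 468 TPM at 24 h. The first-day rise of SDH3 was called in tpt10b and not in WT.

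In complex III 6 of 7 genes fell in each strain at 48 h, and QCR1 passed the test in neither. QCR10 fell most, with 80.0, 73.8 and 88.2 TPM in tpt10b at 48 h, against 299, 300.2 and 297 TPM at 0 h. In WT QCR10 had 90.7, 98.7 and 92.0 TPM at 48 h, against 295, 271 and 288 TPM at 0 h. The differences were -1.88 ± 0.14 on the log2 scale (adjusted p = 1.6e-09) in tpt10b and -1.59 ± 0.14 on the log2 scale (adjusted p = 1.4e-08) in WT, with no overlap. QCR7, with the highest mean level of the complex, fell less, with -1.0 ± 0.13 on the log2 scale (adjusted p = 1.7e-06) in tpt10b and -0.54 ± 0.13 on the log2 scale (adjusted p = 0.0011) in WT, and QCR6 differed by -1.24 in tpt10b and -1.11 in WT. QCR1, named for a large core subunit of the yeast complex, had 301, 287 and 305 TPM in tpt10b at 48 h, against 307, 315 and 289.8 TPM at 0 h. CYC1, in yeast the name of cytochrome c, the mobile carrier between complexes III and IV, had 218, 217 and 227 TPM in tpt10b at 48 h, against 659, 658 and 642 TPM at 0 h. In WT it had 225, 154 and 217 TPM at 48 h, against 783, 710.5 and 769.7 TPM at 0 h. The fall was -1.56 ± 0.12 on the log2 scale (adjusted p = 4.3e-09) in tpt10b and -1.94 ± 0.12 on the log2 scale (adjusted p = 3.1e-10) in WT, with no overlap between the times.

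All 8 complex IV subunits fell in both strains, with medians of -1.26 in tpt10b and -1.27 in WT. COX90 had 295, 258 and 299.5 TPM in tpt10b at 48 h, against 886, 971 and 998 TPM at 0 h, a difference of -1.74 ± 0.11 on the log2 scale (adjusted p = 4.1e-10). In WT the difference of COX90 was -1.41 ± 0.11 on the log2 scale (adjusted p = 6.8e-09). COX12, the highest of the complex, differed by -1.11 in tpt10b and -1.08 in WT. COX2A and COX2B each encode a piece of a split COX2, a catalytic subunit that elsewhere is a mitochondrial gene. COX2B had 301, 308 and 305 TPM in tpt10b at 48 h, against 804, 786 and 767 TPM at 0 h, a difference of -1.36 ± 0.10 on the log2 scale (adjusted p = 9.1e-10), and it differed by -1.42 ± 0.10 on the log2 scale (adjusted p = 6.1e-10) in WT. COX2A differed by -0.92 ± 0.24 on the log2 scale (adjusted p = 0.0022) in tpt10b and -1.15 ± 0.24 on the log2 scale (adjusted p = 0.00037) in WT. COX3, another subunit moved to the nucleus, fell least of the 8 in both strains, with -0.57 in tpt10b and -0.49 in WT. Its levels were 348, 363 and 375 TPM in tpt10b at 48 h, against 559, 547 and 505 TPM at 0 h, and 274, 277 and 292 TPM in WT at 48 h, against 418, 384 and 387 TPM at 0 h.

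The ATP synthase was divided. In tpt10b 16 of its 20 subunits fell at 48 h against 0 h and 2 rose, and in WT 14 fell and 2 rose. The algal ASA genes stood at both ends. ASA8 had 187, 195 and 198 TPM in tpt10b at 48 h, against 817, 829.6 and 851 TPM at 0 h, a difference of -2.10 ± 0.13 on the log2 scale (adjusted p = 1.9e-10). In WT the fall of ASA8 was -1.76 ± 0.13 on the log2 scale (adjusted p = 2e-09). ASA1 had 481, 467 and 504 TPM in tpt10b at 48 h, against 399.7, 377 and 345 TPM at 0 h. In WT it had 429, 619.9 and 534 TPM at 48 h, against 275, 258 and 237 TPM at 0 h, a difference of 1.02 ± 0.13 on the log2 scale (adjusted p = 1.3e-06). ASA2 rose in both strains as well, with 282, 296 and 290.4 TPM in tpt10b at 48 h, against 224, 209.8 and 186 TPM at 0 h, and 221, 186 and 239 TPM in WT at 48 h, against 153, 139 and 136 TPM at 0 h. ASA1 and ASA2 did not overlap between 48 h and 0 h in either strain. ATP2, the catalytic beta subunit of the F1 head, had 837, 895 and 917 TPM in tpt10b at 48 h, against 1182, 1141 and 1030.1 TPM at 0 h. In WT it had 725, 904 and 824 TPM at 48 h, against 786, 742 and 729 TPM at 0 h. ATP2 fell, with -0.34 ± 0.10 on the log2 scale (adjusted p = 0.0049) in tpt10b, a call that rescaling takes away (-0.07), and differed by 0.11 ± 0.10 on the log2 scale (adjusted p = 0.31) in WT. Its partner ATP1A, the alpha subunit, fell in both strains, with -1.0 ± 0.10 on the log2 scale (adjusted p = 9.6e-08) in tpt10b and -0.73 ± 0.10 on the log2 scale (adjusted p = 5e-06) in WT. ATP6, subunit a of the membrane part, fell, with -0.62 in tpt10b and -0.47 in WT on the log2 scale.

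Assembly factors went both ways. At 48 h against 0 h, 6 of the 18 rose and 9 fell in tpt10b, while 8 rose and 5 fell in WT. These shares were near those over all genes, 30.1% higher and 44.1% lower in tpt10b and 37.7% and 32.4% in WT. Of the 9 members that rose in both strains, 6 were assembly factors: NUOAF2, NUOAF4, SDHAF3, COX16, COX17 and ATP23. SDHAF3, known from yeast and animals for the maturation of the iron-sulfur subunit of complex II, was the most abundant of them. It had 635, 669.6 and 659 TPM in tpt10b at 48 h, against 229, 214 and 199.8 TPM at 0 h, a difference of 1.61 ± 0.12 on the log2 scale (adjusted p = 1.2e-09). In WT it had 651, 822 and 768 TPM at 48 h, against 214, 248 and 213 TPM at 0 h, a difference of 1.72 ± 0.12 on the log2 scale (adjusted p = 5.5e-10). The level was already there at 24 h, with 733, 720.1 and 722 TPM in tpt10b and 686, 527 and 706 TPM in WT, so by 48 h SDHAF3 was up in both strains while the 4 subunits of its complex were down. NUOAF4 had 31.5, 32.0 and 32.9 TPM in tpt10b at 48 h, against 16.6, 18 and 15.1 TPM at 0 h, and 34.9, 24.7 and 31.8 TPM in WT at 48 h, against 11.9, 9.73 and 9.94 TPM at 0 h. COX16, a low transcript whose yeast namesake is needed for complex IV assembly, rose, with 0.94 ± 0.26 on the log2 scale (adjusted p = 0.0033) in tpt10b and 1.04 ± 0.26 on the log2 scale (adjusted p = 0.0016) in WT. ATP23, named for a yeast protease and chaperone of the ATP synthase, rose, with 0.68 ± 0.14 on the log2 scale (adjusted p = 0.00034) in tpt10b, where its 0 h libraries lay between 2.73 and 3.02 TPM. COX10, for heme A synthesis in yeast, fell, with 13.0, 12.2 and 13.7 TPM in tpt10b at 48 h, against 49.4, 45.4 and 44.6 TPM at 0 h, a difference of -1.77 ± 0.15 on the log2 scale (adjusted p = 1.3e-08).

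The first and second day in darkness were unlike. In tpt10b at 24 h against 0 h, 63 members fell and 11 rose, beside 57.1% of all genes lower and 18.1% higher, a share near the background. After rescaling 32 fell and 35 rose, beside 38.1% and 34.2%. Without tpt10b 24 h replicate 3, 7 rose. In WT at 24 h against 0 h, 42 fell and 21 rose, beside 25.8% and 40.6% of all genes, and 60 fell and 9 rose after rescaling, beside 34.5% and 31.5%. From 24 h to 48 h, 53 members fell and 18 rose in tpt10b, beside 20.2% of all genes lower and 46.5% higher, with 66 and 7 after rescaling, beside 32.6% and 35.3%. Without tpt10b 24 h replicate 1, 11 rose. In WT 72 fell (65 without WT 48 h replicate 2) and 1 rose at 48 h against 24 h, beside 24.7% and 16.8% of all genes, with 51 and 2 after rescaling, beside 19.7% and 22.5%. The single member called higher, NUOS4B, was called in some of the fits that left out a library, which gave 0 to 3 rises: 0 without WT 24 h replicate 1 or 3 or WT 48 h replicate 3, 2 without WT 48 h replicate 1 and 3 without WT 48 h replicate 2. Of complex I, 28 of 37 subunits fell by 24 h in tpt10b and 22 in WT, while of the ATP synthase 9 of 20 fell and 3 rose in tpt10b and 4 fell and 8 rose in WT. Among the first-day rises of WT were NUOAF4 (log2 1.5 ± 0.15, adjusted p = 1.6e-07), SDHAF3 (1.49), COX16 (1.44), ASA2 (0.97) and QCR1 (0.53), the last not called after rescaling (0.24). The largest first-day fall of each complex in WT was that of NUOB12 (log2 -1.20 ± 0.15, adjusted p = 1.9e-06), COX90 (-0.92), QCR9 (-0.91), ASA8 (-0.72) and SDH4 (-0.46), and CYC1 fell too (-0.57). In tpt10b it was that of NUOP4 (log2 -3.13 ± 0.38, adjusted p = 9.9e-07), COX17 (-2.32), QCR9 (-1.73), ASA6 (-1.39) and SDH1 (-1.02), and CYC1 fell too (-0.98), all lower after rescaling as well. In tpt10b 14 members, 14.7% of the 95, fell on the first day and rose on the second, a course that 29.1% of all genes took. In WT 0 members did so, beside 4.36% of all genes. After rescaling 7 members took this course in tpt10b, beside 17.3% of all genes, and 1 did in WT, beside 7.37%, and the contrast between the strains was not tested.

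Before darkness, tpt10b held more of these transcripts per unit of TPM than WT, but not relative to the median gene. At 0 h 41 members were higher in tpt10b than in WT and 0 lower, beside 50.8% of all genes higher and 9.19% lower, a share no larger than the background. At an unadjusted p under 0.05, limma gave 49 higher and 0 lower, while voom, which sets the median gene equal, called 3 higher and 30 lower. Their median difference was 0.28, where that over all genes was 0.41. After rescaling 3 were higher and 24 lower, beside 13.1% and 21.2% of all genes. The 3 that were higher on both scales were assembly factors: COX11, COX15 and ATP11. ATP11, an F1 chaperone in yeast, had 25.6, 23.9 and 21.6 TPM in tpt10b, against 14.3, 8.32 and 9.16 TPM in WT, a difference of 1.12 ± 0.20 on the log2 scale (adjusted p = 0.00024) and 0.60 after rescaling. COX15, for heme A synthesis in yeast, had 14.7, 15.5 and 12.4 TPM in tpt10b, against 8.89, 5.93 and 6.31 TPM in WT, a difference of 0.93 ± 0.21 on the log2 scale (adjusted p = 0.0014) and 0.42 after rescaling. COX11 had 26.2, 23.8 and 25.7 TPM in tpt10b, against 14.5, 12.1 and 13.4 TPM in WT. None of these overlapped between the strains. The largest differences in the other complexes, NUOFAF2 (0.66), QCR2 (0.52) and SDH1 (0.40, lost without any one of 4 libraries, WT 0 h replicates 2 and 3 and tpt10b 0 h replicates 1 and 2), were not called after rescaling, where QCR2 stood at -0.03 and SDH1 at -0.16. CYC1 was the one member with all tpt10b libraries below WT at 0 h, with 659, 658 and 642 TPM in tpt10b and 783, 710.5 and 769.7 TPM in WT. It was not called on the TPM scale and was lower after rescaling (-0.77, adjusted p = 1.5e-05).

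At 24 h of darkness members differed between the strains in both directions. In tpt10b 21 members were higher and 25 lower than in WT, beside 5.76% of all genes higher and 34.8% lower, so the share of members lower was no larger than the background. After rescaling 49 were higher and 11 lower, beside 20.6% and 20.5% of all genes. All 21 that were higher on the TPM scale were higher after rescaling, and of the 25 lower ones 11 stayed lower: ASA6, COX17, COX191, CYC1, NUO17, NUO21, NUOA8, NUOB14, NUOB18, NUOP4 and QCR9. Without WT 24 h replicate 2 the counts were 9 higher and 16 lower. Of the ATP synthase 9 of 20 subunits were higher and 3 lower. Of complex I 6 of 37 subunits were higher and 12 lower, again a share of lower genes no larger than the background, and after rescaling 20 were higher and 6 lower.

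The largest deficits in tpt10b were those of NUOP4 and COX17. COX17, the copper chaperone that in yeast supplies complex IV, had 8.18, 16.1 and 7.16 TPM in tpt10b at 24 h, against 39.0, 57.8 and 44.7 TPM in WT, a difference of -2.13 ± 0.29 on the log2 scale (adjusted p = 7.7e-05), or 22.2% of the WT mean. NUOP4, a complex I subunit by its symbol, had 4.70, 19.6 and 9.28 TPM in tpt10b, against 35.4, 69.1 and 51.0 TPM in WT, a difference of -2.26 ± 0.38 on the log2 scale (adjusted p = 0.00029), or 21.6% of the WT mean. Neither overlapped between the strains, and after rescaling the differences were -1.79 and -1.92. NUO17 followed, with 11, 19.2 and 12.8 TPM in tpt10b, against 29.6, 44.3 and 37 TPM in WT (log2 -1.33 ± 0.32, adjusted p = 0.0041). In complex III QCR9 had 114, 166 and 117 TPM in tpt10b, against 218, 291 and 245 TPM in WT (log2 -0.93 ± 0.23, adjusted p = 0.0041), and among the ASA genes ASA6 had 130.1, 154 and 119 TPM in tpt10b, against 212, 276 and 229 TPM in WT (log2 -0.83 ± 0.18, adjusted p = 0.0023). CYC1 had 357, 307 and 330.2 TPM in tpt10b, against 449.7, 566 and 513 TPM in WT (log2 -0.62 ± 0.12, adjusted p = 0.0011). In each of these 6 genes all tpt10b libraries were below all WT libraries, and tpt10b replicate 2 was the closest to WT in COX17, NUOP4, NUO17, QCR9 and ASA6.

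Other members were higher in tpt10b at 24 h. ATP16, the delta subunit of the central stalk by its yeast name, had 916, 619 and 902 TPM in tpt10b, against 519, 397 and 559 TPM in WT, without overlap, a difference of 0.72 ± 0.17 on the log2 scale (adjusted p = 0.0034). ASA7 had 301, 274 and 270.0 TPM in tpt10b, against 203, 183 and 199 TPM in WT, a difference of 0.53 ± 0.11 on the log2 scale (adjusted p = 0.0011). QCR7 (0.48), NUO13 (0.51), COX13 (0.41) and ATP2 (0.33) were higher as well, without overlap, and the call of ATP2 is lost without WT 24 h replicate 2 (0.25, adjusted p = 0.082). SDHAF2, known from yeast and animals for attaching FAD to the complex II flavoprotein, had 121, 80.5 and 114 TPM in tpt10b, against 73.4, 44.9 and 82.3 TPM in WT. Its difference was 0.67 ± 0.18 on the log2 scale (adjusted p = 0.0085), but the strains overlapped, and without WT 24 h replicate 2 it was 0.41 (adjusted p = 0.057). NUO11 and NUO3, both of the kind that other organisms keep in the mitochondrial genome, were higher in tpt10b, by 0.49 and 0.40. The call of NUO3 is lost without WT 24 h replicate 2 (0.33, adjusted p = 0.077) and without tpt10b 24 h replicate 1 (0.33, adjusted p = 0.058). The other nuclear genes of that kind did not share one direction: COX3 differed by 0.05, ATP6 by -0.20 and COX2B by -0.23, none of them called on the TPM scale (COX3 was higher after rescaling, 0.42), while COX2A was lower (log2 -0.73 ± 0.24, adjusted p = 0.022), not called after rescaling (-0.37). The call of COX2A is also lost without WT 24 h replicate 2 or 3 or without tpt10b 24 h replicate 1 or 3, where its value was between -0.74 and -0.51. The 25 lower members had a median coding length of 366 bp and a median level of 76.6 TPM, against 609 bp and 406 TPM for the 21 higher ones. Over all 95 members the difference at 24 h went with coding length at a Spearman rho of only 0.14 and with the WT level at 0 h at 0.33, which describe these genes and carry no test.

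**Figure D3:**
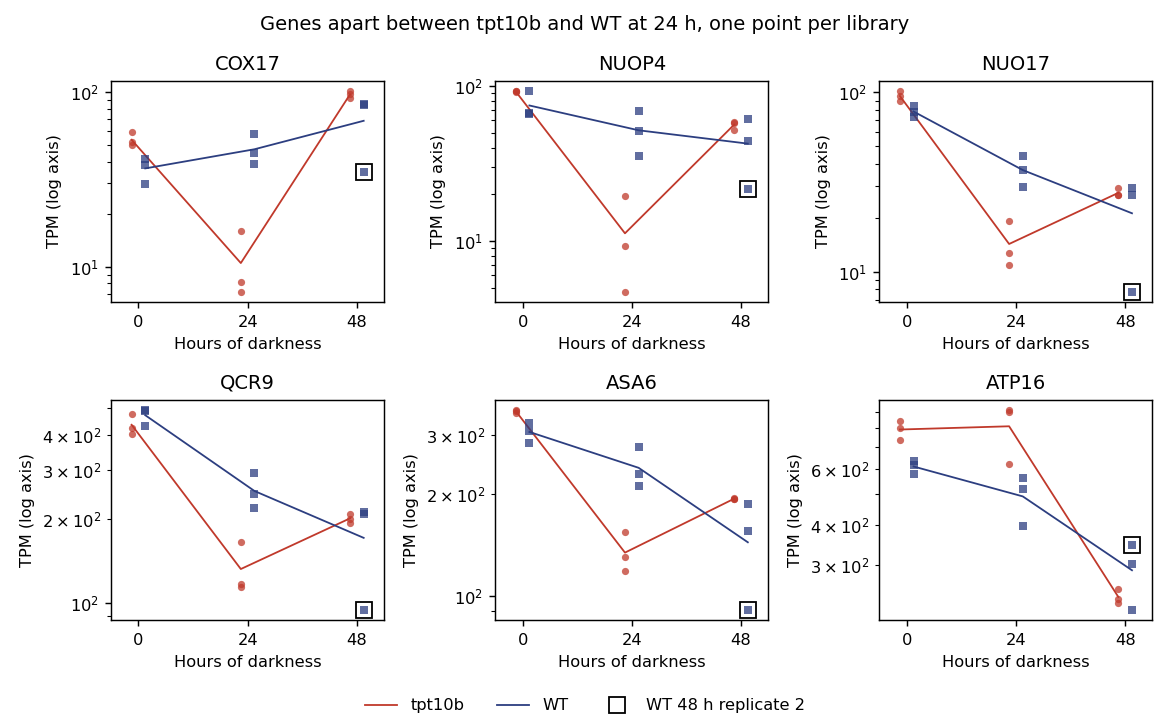
TPM on a log axis of 6 genes at 0, 24 and 48 h of darkness, a point per library, tpt10b (red circles) left of WT (blue squares), with lines through the means. In COX17, NUOP4, NUO17, QCR9 and ASA6 the tpt10b libraries drop below WT at 24 h and lie near WT replicates 1 and 3 at 48 h, while ATP16 is higher in tpt10b at 24 h. The boxed point marks WT replicate 2 at 48 h, which is the lowest WT library at 48 h in the first 5 genes.

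At 48 h few members differed between the strains. In tpt10b 7 members were higher than in WT and 0 lower, beside 5.20% of all genes higher and 1.39% lower, and after rescaling 2 were higher and 0 lower, beside 3.04% and 2.47%. The 7 were NUOB13, QCR1, QCR2, COX12, COX3, ASA2 and ATP9B, of which QCR2 and ATP9B were called on both scales. At an unadjusted p under 0.05, limma gave 18 higher and 6 lower, and voom on recovered reads called 2 higher and 0 lower. The count depended on single libraries. It was 19 higher and 5 lower without WT 48 h replicate 1, 1 higher without WT 48 h replicate 2, and 0 without any one of the 3 tpt10b 48 h libraries. QCR2 had 98.9, 101 and 101 TPM in tpt10b, against 80.5, 57.9 and 75.8 TPM in WT, a difference of 0.50 ± 0.13 on the log2 scale (adjusted p = 0.028), and without WT 48 h replicate 2 it was 0.36 (adjusted p = 0.12). ATP9B had 235, 242 and 244 TPM in tpt10b, against 195, 102 and 186 TPM in WT (log2 0.63 ± 0.18, adjusted p = 0.047), and without that library it was 0.34 (adjusted p = 0.16). NUOB13 differed by 0.68 and without it by 0.38 (adjusted p = 0.2). COX3 had 348, 363 and 375 TPM in tpt10b, against 274, 277 and 292 TPM in WT (log2 0.36 ± 0.09, adjusted p = 0.02), with no overlap, and lost its call without any one of the tpt10b libraries (0.34 to 0.39).

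The members that were low in tpt10b at 24 h were also those that were low in WT replicate 2 at 48 h. Across the 95 members, the difference between tpt10b and WT at 24 h went with the deviation of that library from the mean of the other WT 48 h libraries at a Pearson r of 0.83 and a Spearman rho of 0.87, with no library in common. Over all 14731 genes the values were 0.63 and 0.69. These are correlations across genes, which are not independent replicates, and carry no test. All 25 members lower in tpt10b at 24 h were below the mean of the other WT 48 h libraries in replicate 2, by a median of -0.62 on the log2 scale, and all 21 higher ones were above it, by a median of 0.35. Over all 14731 genes, replicate 2 was below both other WT 48 h libraries for 9634 and above both for 3125. Among the 95 members it was below both for 46 and above both for 37. COX17 had 84.9, 34.9 and 86.3 TPM in WT at 48 h, NUO17 29.2, 7.76 and 26.8 TPM, QCR9 211, 94.0 and 207 TPM and ASA6 186, 90.7 and 155 TPM, and replicate 2, the middle value of each list, was the lowest. The ribosomal protein share of that library, 41.6%, was close to the highest of tpt10b at 24 h, 42.4%. Its part in the result was not tested.

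The same library shapes the comparison of the differences at 24 h and 48 h. Across the 95 members these ran against each other, with a Pearson r of -0.72 and a Spearman rho of -0.76, beside -0.48 and -0.49 over all genes. Of the 25 members lower in tpt10b at 24 h, 24 had a positive difference at 48 h, where 85.4% of all genes lower at 24 h did. Without WT 48 h replicate 2 the correlations were -0.30 and -0.37, and 17 of the 25 were positive.

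**Figure D4:**
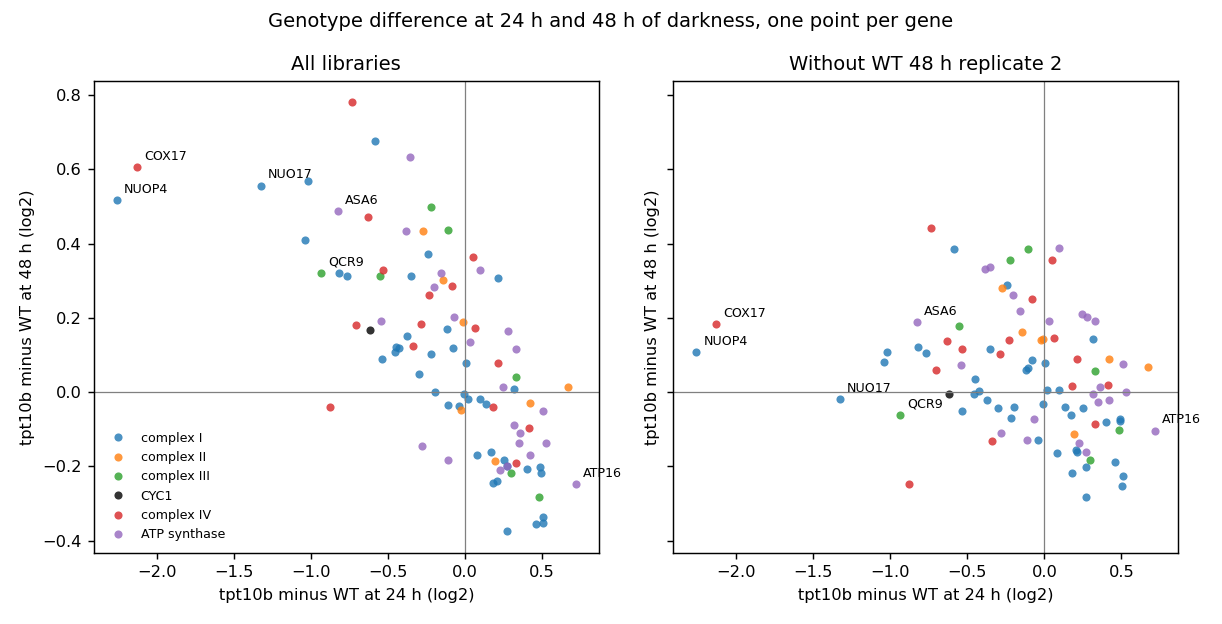
Log2 difference of tpt10b minus WT at 24 h (horizontal axis) and at 48 h (vertical axis) for the 95 genes, coloured by complex, with all libraries (left) and without WT replicate 2 at 48 h (right). The downward slope on the left, a Pearson r of -0.72, is -0.30 on the right.

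Whether darkness acted differently in the strains was tested by the interaction, which sets the dark change in tpt10b against that in WT. At 24 h it was lower for 46 members and higher for 1, SDHAF2, beside 57.9% and 6.25% of all genes. The count higher was 7 without tpt10b 24 h replicate 2 and 0 without any one of 6 other libraries, WT 0 h replicates 2 and 3, WT 24 h replicate 2, tpt10b 0 h replicate 3 and tpt10b 24 h replicates 1 and 3. After rescaling it was lower for 3 and higher for 52, beside 19.2% and 25.4%, so the direction for most members depends on the scale. COX17 and NUOP4 were lower on both, COX17 with -2.67 ± 0.42 on the log2 scale (adjusted p = 8.8e-05) and -1.79 after rescaling, and NUOP4 with -2.57 ± 0.53 on the log2 scale (adjusted p = 0.00065) and -1.68 after rescaling. NUO17 was lower, with -1.61 ± 0.46 on the log2 scale (adjusted p = 0.0058), not called after rescaling (-0.71). At 48 h the interaction was lower for 18 members and higher for 0, beside 26.4% and 9.02% of all genes, and after rescaling lower for 0 and higher for 16, beside 8.75% and 16.9%. At an unadjusted p under 0.05 limma gave 33 lower and 1 higher, and voom called 0 lower and 15 higher. The count of 18 was 10 without WT 0 h replicate 2 or 3, 11 without tpt10b 0 h replicate 1 or tpt10b 48 h replicate 1, 28 without WT 48 h replicate 1 and 21 without WT 48 h replicate 2. The largest, ATP11 (-0.92), NUOFAF2 (-0.90) and COX10 (-0.73), were all assembly factors and none was called after rescaling.

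The NUOS4 and ATP9 pairs of genes with a shared name each shifted within the pair over time, a measure that does not depend on scaling. NUOS4B made up 3.85, 3.44 and 4.03% of the summed TPM of NUOS4 and NUOS4B in tpt10b at 0 h, 9.45, 21.5 and 19.0% at 24 h, then 30.9, 21.9 and 28.7% at 48 h. In WT it made up 3.44, 2.50 and 4.27% at 0 h, 12.4, 12.7 and 8.62% at 24 h, then 29.1, 17.6 and 29.0% at 48 h. Each later time lay above 0 h without overlap in both strains. ATP9A and ATP9B, which encode subunit c of the proton-driven ring and lie next to each other in assembly Chlamydomonas_reinhardtii_v5.5, moved apart in the other sense. ATP9A, the most abundant of the 95 genes, had 2052, 1956 and 1975 TPM in tpt10b at 0 h, 2579, 3051 and 3289 TPM at 24 h, then 1639, 1688 and 1741 TPM at 48 h. ATP9B had 532, 580.3 and 573 TPM at 0 h, 235, 290.3 and 207 TPM at 24 h, then 235, 242 and 244 TPM at 48 h in tpt10b. ATP9B thus made up 20.6, 22.9 and 22.5% of the pair in tpt10b at 0 h, 8.36, 8.69 and 5.93% at 24 h, then 12.5, 12.6 and 12.3% at 48 h. In WT it made up 21.8, 18.5 and 21.3% at 0 h, 9.87, 13.6 and 10.0% at 24 h, then 12.8, 4.44 and 10.4% at 48 h, with replicate 2 lowest at 48 h. How reads from near-identical stretches were shared between such genes is not given in the sources used here, so the split within these pairs is uncertain. ATP1B held less of its pair, with a mean of 0.772% in tpt10b and 0.850% in WT of the summed TPM of ATP1A and ATP1B at 0 h and 1.49% and 1.60% at 48 h. COX2A and COX2B had no such common course. COX2A made up 26.6, 26.8 and 26.1% of their summed TPM in tpt10b at 0 h, 19.0, 26.9 and 15.9% at 24 h, then 32.5, 32.2 and 33.8% at 48 h. In WT it made up 22.9, 21.2 and 22.0% at 0 h, 26.1, 27.0 and 26.5% at 24 h, then 28.5, 20.0 and 28.1% at 48 h. The 24 h share overlapped with 0 h in tpt10b and lay above it in WT, while the 48 h share lay above 0 h in tpt10b and overlapped with it in WT.

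**Figure D5:**
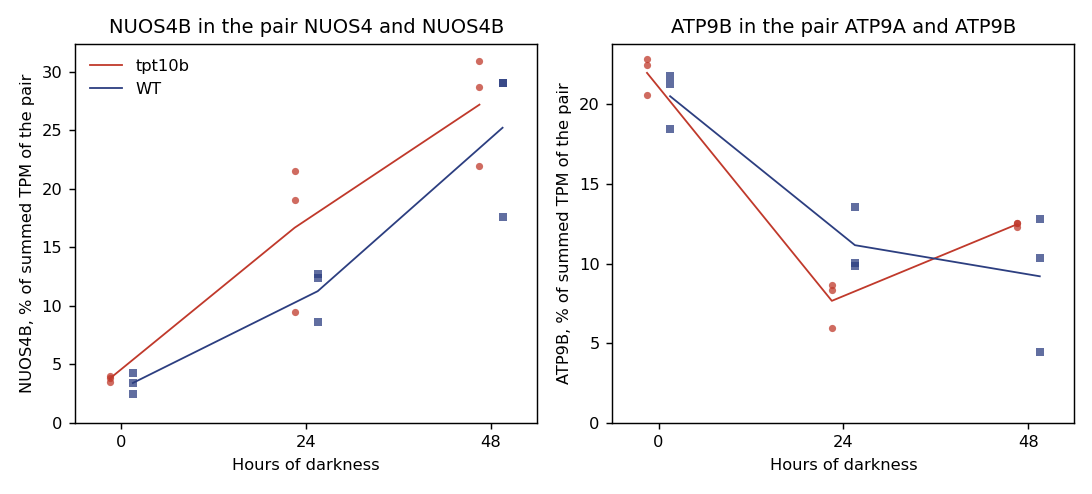
Share of NUOS4B (left) and of ATP9B (right) in the summed TPM of its pair, in percent from 0 (vertical axes), at 0, 24 and 48 h of darkness. Points are libraries, tpt10b (red circles) left of WT (blue squares), and lines join means, with the NUOS4B share highest at 48 h and the ATP9B share highest at 0 h in both strains.

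Other genes of the pathway were followed from lists. The 7 measured protein genes of the mitochondrial genome, which encode the remaining complex I, III and IV subunits, were low in these libraries, with 23.0 TPM of cob in 1 library as the highest value. All 7 were higher in tpt10b at 0 h, 0 were called at 24 h and 6 were higher at 48 h, or 6, 0 and 4 after rescaling. Over all genes 50.8%, 5.76% and 5.20% were higher in tpt10b at these times, or 13.1%, 20.6% and 3.04% after rescaling. At 24 h 0 of the 7 passed an unadjusted p under 0.05 in limma either, and the voom calls were not counted for this list. Without WT replicate 2, the lowest WT library for cob, the 48 h count was 3. nad2 had 8.30, 11.8 and 8.4 TPM in tpt10b at 0 h, against 1.94, 2.29 and 2.08 TPM in WT, a difference of 1.74 ± 0.22 on the log2 scale (adjusted p = 1.6e-05). cob, for cytochrome b of complex III, had 23.0, 16.8 and 16.8 TPM in tpt10b at 48 h, against 9.55, 4.85 and 6.49 TPM in WT, a difference of 1.35 ± 0.23 on the log2 scale (adjusted p = 0.0026). Organelle transcripts also depend on how they were captured, and a poly(A) selection is not given in the sources used here. In tpt10b all 7 fell on the first day, 6 after rescaling, beside 57.1% and 38.1% of all genes lower. All 7 rose on the second day, beside 46.5% of all genes higher.

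Of 13 citrate cycle genes, 11 fell and 1 rose in tpt10b at 48 h against 0 h, and 11 fell and 2 rose in WT. For this list and those below, the shares over all genes were 44.1% lower and 30.1% higher in tpt10b. In WT they were 32.4% and 37.7%. CIS2 is a citrate synthase by its symbol, which does not say whether it acts in the mitochondrion. It had 176, 175 and 179 TPM in tpt10b at 48 h, against 897, 859 and 788 TPM at 0 h. In WT CIS2 had 140.2, 113 and 148 TPM at 48 h, against 788, 806 and 706 TPM at 0 h. Of 5 chain genes whose symbols the rule leaves out (RIP1, CYC4 and the gamma carbonic anhydrase genes CAG1 to CAG3 of complex I), 3 fell and 1 rose at 48 h against 0 h in each strain, and 2 fell in WT without replicate 2 at 48 h. RIP1, the Rieske iron-sulfur subunit of complex III, fell, with -1.14 ± 0.11 on the log2 scale (adjusted p = 3.1e-08) in tpt10b and -0.81 ± 0.11 on the log2 scale (adjusted p = 2.5e-06) in WT, and CAG3 rose, with 1.3 in tpt10b and 1.66 in WT. The 8 bypass enzymes are alternative oxidases and alternative NAD(P)H dehydrogenases, which move electrons without pumping protons. They were listed by symbol, which does not say in which organelle each acts. Of these 8, 6 rose and 1 fell in tpt10b at 48 h against 0 h. In WT 4 rose and 1 fell, and 6 rose without replicate 2 at 48 h. NDA6 had 43.7, 43.7 and 48.5 TPM in tpt10b at 48 h, against 12.8, 14.0 and 12.5 TPM at 0 h, a difference of 1.72 ± 0.22 on the log2 scale (adjusted p = 1.3e-06). NDA3 was apart at 24 h like COX17, with 5.86, 9.70 and 6.66 TPM in tpt10b, against 38.7, 76.2 and 50.7 TPM in WT (log2 -2.71 ± 0.34, adjusted p = 4.1e-05), and WT replicate 2 was again the lowest at 48 h, among 76.1, 21.5 and 70.8 TPM. AOX1, an alternative oxidase, was lower in tpt10b before darkness, with 152, 150.0 and 125 TPM in tpt10b at 0 h, against 233, 308 and 388 TPM in WT, a difference of -1.09 ± 0.19 on the log2 scale (adjusted p = 0.00016) and -1.65 after rescaling. Of 8 mitochondrial carriers named in the list, 4 matched a symbol, and 2 rose and 1 fell at 48 h against 0 h in each strain, while 3 rose in WT without replicate 2 at 48 h.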

How the data were processed

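RNA was DNase-treated and primed with random hexamers, per the labels' protocols. The annotation was CC-4532 v6.1, per the file headers. HISAT2 2.0.5 and StringTie 1.3.3b are named in the submitters' processing notes without their roles. The counting tool, strandedness and poly(A) selection are not given in the sources used here. The deposited table holds coding length (94.4% of lengths are multiples of 3) and TPM computed by the authors from counts and gene length. With a single factor for each library, TPM times coding length gave whole reads (tolerance 0.01) in 100% of genes.

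Genes with at least 1 TPM in at least 3 of 18 libraries were kept. log2(TPM + 1) was fitted with limma 3.58.1 (R 4.3.3), 1 mean per group over all 18 libraries, with a variance trend, in 11 contrasts. Adjusted p-values are Benjamini-Hochberg over all genes kept, with a threshold of 0.05. Fold changes on the log2(TPM + 1) scale understate those of low genes. With 3 against 3, an exact test of a single value cannot go under 0.1, so such values are described only. The fit was tested on simulated data.

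Members and lists were chosen with earlier results of these data known. Members were named by a rule: the largest called rise and fall per complex and comparison, up to 3 each way per interaction, the 2 highest levels per complex, the genes elsewhere encoded in mitochondria, and genes sharing a stem. For other lists the 2 smallest adjusted p-values were named. ASA7, ASA2, COX11, SDH3, NUO17 at 24 h and the library values beside list counts were chosen after they were seen. Alternatives were pseudocounts of 0.1 and 5, no filter, a mean of at least 5 TPM as the filter, rescaling by median-of-ratios, a replicate block, fits to only the groups compared, and leaving out each replicate. limma-voom on the recovered reads was added after seeing the data.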

Additional observations from a re-analysis of the deposited data

Results flagged for a closer look

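By the interaction test the dark change differed between tpt10b and WT for 47 members at 24 h, beside 57.9% of all genes lower and 6.25% higher. At 48 h it differed for 18, beside 26.4% and 9.02%, so neither share was larger than the background. Rescaling turned the sign of 31 of the 47. The 7 given here are those with the largest values each way, up to 3. At 24 h the interaction was -2.67 on the log2 scale for COX17, -2.57 for NUOP4 and -1.61 for NUO17, lower in tpt10b, and 0.69 for SDHAF2, higher in tpt10b. The call of SDHAF2 is lost without any one of 6 libraries, with 0.43 as the lowest value, without WT 24 h replicate 2, and after rescaling its value was 1.61. At 48 h the interaction was -0.92 for ATP11, -0.90 for NUOFAF2 and -0.73 for COX10. None of these 3, nor NUO17 at 24 h, was called after rescaling. The interaction of ATP11 loses its call without WT 0 h replicate 2 or 3 or WT 48 h replicate 3 (-0.84 to -0.77), and that of NUOFAF2 without WT 0 h replicate 3 (-0.82). COX10 had 49.4, 45.4 and 44.6 TPM in tpt10b at 0 h, against 31.9, 26.9 and 26.7 TPM in WT, and 13.0, 12.2 and 13.7 TPM in tpt10b at 48 h, against 12.0, 14.5 and 13.6 TPM in WT, so the strains stood apart at 0 h and overlapped at 48 h.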

How the results depend on the processing

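Rescaling and limma-voom, which both set the median gene equal, moved most counts. At 0 h 3 and 3 members were higher in tpt10b than in WT and 24 and 30 lower, given for rescaling and then voom. At 24 h 49 and 49 were higher and 11 and 11 lower, and at 48 h 2 and 2 were higher. In WT 9 and 8 rose at 24 h against 0 h, and 2 and 3 at 48 h against 24 h. In tpt10b 35 and 35 rose and 32 and 31 fell at 24 h against 0 h, and 7 and 8 rose at 48 h against 24 h. The interaction at 24 h was higher for 52 and 52 and lower for 3 and 3, and at 48 h higher for 16 and 15 and lower for 0 and 0. Among the named differences between the strains, signs reversed for QCR2 (-0.032 and -0.033) and SDH1 (-0.16 and -0.16) at 0 h, and at 24 h for COX12 (0.28 and 0.28), NUOB8 (0.064 and 0.064), NUOP5 (0.36 and 0.36) and, with voom, ATP1A (0.21). Over all members called, rescaling turned the sign of 27 of 41 between the strains at 0 h, 18 of 74 in tpt10b at 24 h against 0 h and 31 of 47 interactions at 24 h, of which 1, 4 and 7 were called the other way.

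With the compared groups only, 65 members were higher and 1 lower in tpt10b at 0 h, 10 were higher at 24 h and 0 at 48 h, and 0 rose in WT at 48 h against 24 h. That last count was also 0 with no filter, and a pseudocount of 0.1 gave 4 higher in tpt10b at 48 h. The cause was not tested.

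Leaving out 1 library at a time gave 30 to 42 members higher in tpt10b than in WT at 0 h, 9 to 26 higher and 16 to 26 lower at 24 h, and 0 to 19 higher and 0 to 5 lower at 48 h. In WT 0 to 3 rose at 48 h against 24 h. In tpt10b 7 to 12 rose at 24 h against 0 h and 11 to 18 at 48 h against 24 h. The interaction at 24 h was higher for 0 to 7, and at 48 h higher for 0 to 1 and lower for 10 to 28. Of 774 such values of named members, 718 kept direction and call, 54 lost the call, 2 gained it and 0 reversed. At 24 h the calls of COX90 (0.24 to 0.33 without any of 5 libraries) and QCR6 (0.24 to 0.31, 2 libraries) were among those lost.

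The replicate numbers did not pair the samples: of 45 same-numbered pairs of libraries 6 had a correlation of deviations above 0.1, and 1 of 18 libraries correlated best with its own number. With the replicate block 3 members were higher in tpt10b at 48 h. At 24 h the block gave 20 higher and 25 lower. Genes at low counts, such as COX16, have the least depth behind their values.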
